A study of Homo sapiens with 12 samples.

Results

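The 6 genes GPC3, LIN28B, IGF2BP1, IGF2BP3, SALL4 and HMGA2 are oncofetal genes of the liver, active in fetal tissue, low in most adult tissue and active again in many liver cancers. Their chromatin was described in HepG2, an established human line labelled as hepatocellular carcinoma, from peaks of 3 histone marks. A peak was taken when its nearest base lay within 50 kb of the start of a gene on GRCh37, also called hg19. This rule used positions only and no measured value, though the genes and lists were chosen with earlier results of these data known. It found 230 of the 273551 peaks on chromosomes 1 to 22 and X. They were 21 of 24446 H3K4me3 peaks, 81 of 66513 H3K27ac peaks and 128 of 182592 H3K4me1 peaks.

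The genes work at different points of a shared fetal growth programme. GPC3 is a heparan sulfate proteoglycan of the cell surface and a tissue marker of liver cancer. LIN28B is an RNA-binding protein that blocks the maturation of let-7 microRNAs, and the messages of HMGA2, LIN28B, IGF2BP1 and IGF2BP3 are known targets of let-7. IGF2BP1 and IGF2BP3 are RNA-binding proteins that stabilise or position growth-related messages. SALL4 is a zinc finger transcription factor of stem cells and fetal liver, and HMGA2 is a chromatin protein that bends DNA. Of the marks, H3K4me3 sits mainly at active or poised promoters, H3K27ac at active promoters and enhancers, and H3K4me1 at enhancers and the flanks of promoters.

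The labels gave 12 libraries of untreated HepG2 cells, 3 for each of H3K27ac, H3K4me1, H3K4me3 and a control that is titled input but has an anti-mouse immunoglobulin as its antibody. The values came from 1 deposited peak list for each mark, pooled over the 3 libraries going by its name. There were therefore no replicate values, the depth of the libraries is unknown, and none of the differences below could be tested against the spread between cultures. The signal value of a peak is the authors' own, its reference is not named in the sources used here, and peaks were therefore ranked only within a list. A rank of "top 5%" means that 5% of the peaks of that list had a signal value at least as high. Markers of the labelled cell type were not analysed here, and neither was expression of the 6 genes.

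Each of the 6 starts had an H3K4me3 peak within 1000 bp, and 5 of them also had H3K27ac, the exception being SALL4. In the whole H3K4me3 list, 77.5% of the peaks overlapped H3K27ac (95% Wilson interval 77.0 to 78.1, counting error only), so 5 of 6 is near that background. H3K4me1 was within 1000 bp at 2 starts, GPC3 and SALL4, and at 0 of the 6 did an H3K4me1 peak contain the start itself. Of all H3K4me3 summits, which need not be gene starts, 87.2% had H3K4me1 within 1000 bp and 40.6% lay inside an H3K4me1 peak. Those summits are of peaks of any signal value and width. Placed by the summit of the H3K4me3 start peak instead, SALL4 alone of the 6 lay inside an H3K4me1 peak. H3K4me3 and H3K27ac peaks both contained the start at GPC3, LIN28B, IGF2BP1, IGF2BP3 and HMGA2. The windows of 50 kb to either side held all 3 marks at 6 of 6 genes. Of 30335 windows of 100 kb laid end to end along the chromosomes, without regard to genes, 9686 (31.9%) held all 3. By mark, 11280 (37.2%) of the 30335 held H3K4me3, 42.6% held H3K27ac and 63.8% held H3K4me1. Each window of the 6 genes held H3K4me3, so the like background is the 11280. Most of the 11280 held all 3 marks, so 6 of 6 is near that background.

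**Figure D1:**
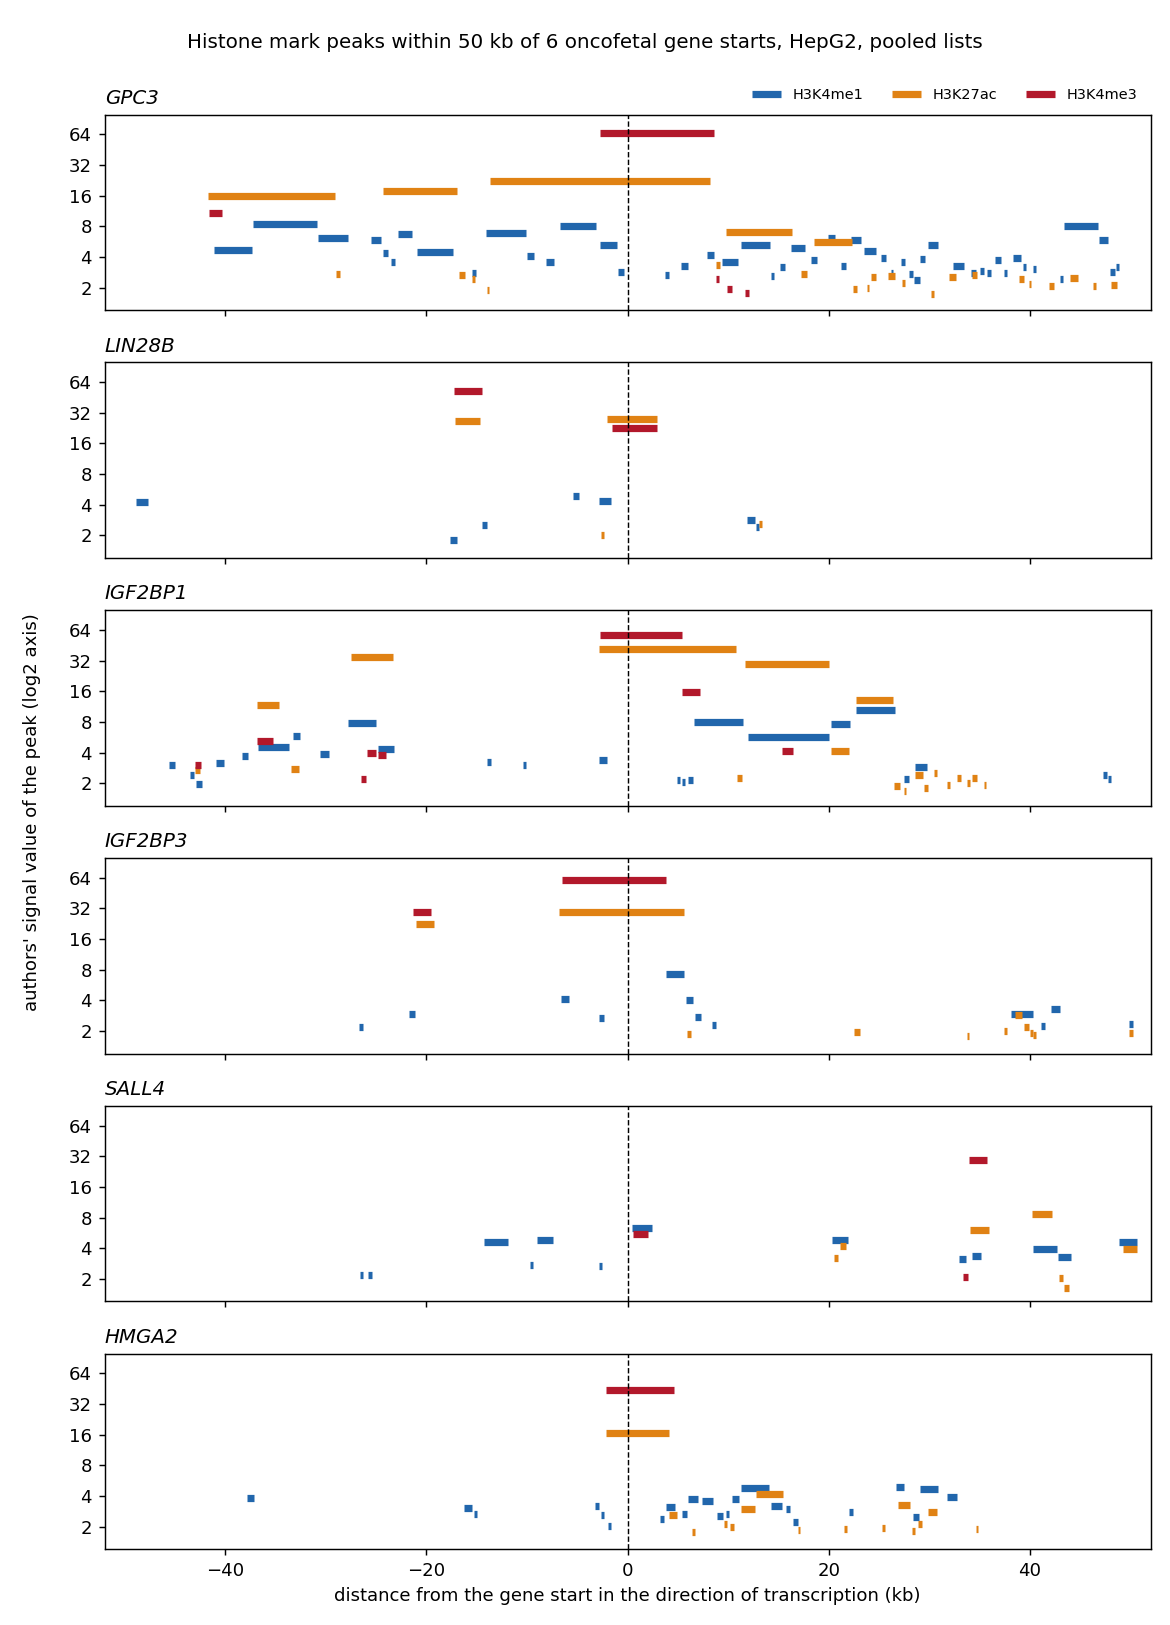
Each horizontal bar is 1 peak, placed by its distance from the gene start in the direction of transcription (kb) and by the authors' signal value on a log2 axis, with 1 panel per gene and 1 colour per mark. Signal values of different marks come from different lists and their heights should not be compared. Long bars of H3K27ac span both sides of GPC3, bars of H3K27ac crowd the downstream side of IGF2BP1 and HMGA2, and the SALL4 start carries a weak H3K4me3 bar with H3K4me1 and no H3K27ac.

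GPC3, on the minus strand of chromosome X with its start at 133119673, had the longest H3K27ac and H3K4me1 of the 6 genes. A single H3K4me3 peak ran from 133111067 to 133122420, from 2747 bp upstream to 8606 bp downstream of the start, with a signal value of 66.0 (top 3.04%). At 11354 bp it was the 7th widest peak of the whole H3K4me3 list. The H3K27ac peak over the start ran from 133111481 to 133133342, a width of 21862 bp, which was the 12th widest of its list, at a signal value of 22.4 (top 10.4%). Acetylation thus reached 13669 bp upstream, well beyond the upstream edge of H3K4me3.

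Further upstream of GPC3 the acetylation came back in long blocks. A block of 7315 bp had its summit 20836 bp upstream (signal value 17.7) and did not overlap H3K4me3. A block of 12650 bp had its summit 37592 bp upstream (16.0), and H3K4me1 covered 92.7% of it. That outer block also held the only other H3K4me3 peak of the window with a signal value above 10, of 1245 bp and 10.8, with its summit 40930 bp upstream. Downstream, inside the direction of transcription, H3K27ac was broken into 18 peaks, most of them short and weak. The strongest of these was 6527 bp wide with a signal value of 7.09. H3K4me1 made 49 peaks around GPC3, of which 37 (75.5%) overlapped H3K27ac, beside 33.4% of the whole H3K4me1 list. H3K27ac covered 61.0% of this window, against a mean of 3.04 kb in windows of 100 kb along the chromosomes. These shares are therefore not at like coverage, and a share at like coverage was not computed. The strongest H3K4me1 peak, with its summit 36578 bp upstream, had a signal value of 8.51 (top 2.84%) and lay wholly inside acetylated sequence.

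The −log10 p-values at GPC3 were low for the signal values. The start peak of H3K4me3 had 2124, against a median of 5545 for the 1228 H3K4me3 peaks with a signal value within 10% of it, and 99.3% of those had a higher value. The 33 such peaks on chromosome X had a median of 2582. The same held for H3K27ac, with 366 against a median of 1013 over 2012 peaks and 493 over the 55 on chromosome X. Peaks of chromosome X with like signal values thus had low −log10 p-values as well, and what lowers them there was not tested. By p-value the GPC3 start peak was in the top 35.2% of the H3K4me3 list, and signal value and p-value place GPC3 differently.

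LIN28B, on the plus strand of chromosome 6 with its start at 105404923, had 2 separate promoter-type regions and little else. Over the start, an H3K4me3 peak from 105403348 to 105407844 had a signal value of 22.5 (top 42.6%), and an H3K27ac peak from 105402898 to 105407879 had 27.6 (top 7.25%). Some 16 kb upstream, a narrower H3K4me3 peak from 105387623 to 105390483 had 53.0 (top 11.8%), and an H3K27ac peak from 105387762 to 105390247 had 26.8 (top 7.73%). The acetylation signal values were thus close at both places, while H3K4me3 was stronger at the upstream place and wider at the given start (4497 against 2861 bp). RefSeq lists 2 promoters for LIN28B, printed here because the pair of H3K4me3 peaks has a like spacing. Their starts are 16142 bp apart in GRCh38.p14, while the H3K4me3 summits were 16720 bp apart and the H3K27ac summits 16229 bp apart in GRCh37. No position was converted between the builds. The 250 bases before each start are given 5′ to 3′, in lower case. Capitals mark matches to CACGTG, to CCAAT or its reverse complement ATTGG, and to GGGCGG or its reverse complement CCGCCC. The upstream one is chr6:104940715-104940964 and the downstream one chr6:104956857-104957106, both GRCh38.p14, plus strand.
LIN28B upstream: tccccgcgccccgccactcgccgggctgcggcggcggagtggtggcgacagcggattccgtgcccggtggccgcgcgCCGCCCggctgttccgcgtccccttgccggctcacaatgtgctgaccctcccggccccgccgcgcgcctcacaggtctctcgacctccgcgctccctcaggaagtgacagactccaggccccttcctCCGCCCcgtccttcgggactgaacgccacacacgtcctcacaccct
LIN28B downstream: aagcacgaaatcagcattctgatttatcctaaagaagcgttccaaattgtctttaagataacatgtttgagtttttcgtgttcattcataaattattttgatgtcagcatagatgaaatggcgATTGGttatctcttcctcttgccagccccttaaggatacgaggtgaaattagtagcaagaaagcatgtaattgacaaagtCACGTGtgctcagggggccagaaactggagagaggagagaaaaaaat

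The LIN28B promoters differ in base composition. The upstream one has 33 CG dinucleotides and 73.6% G and C, and 91.9% of the 35116 promoters in the table have fewer CG. The downstream one has 6 CG and 38.4% G and C, below the table's median of 11 CG. The upstream sequence holds 2 matches to the GC box GGGCGG, found in 42.6% of the promoters, and none to CACGTG. The downstream sequence holds 1 match to CACGTG, the E-box letters that MYC and USF proteins can bind, found in 6.34% of the promoters, and 1 to CCAAT, found in 32.0%. In the table LIN28B-AS1, an antisense transcript, starts 438 bp before the upstream LIN28B start on the opposite strand, and which transcript the upstream peaks go with was not analysed here. A match is a run of letters only, and binding was not measured.

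The rest of the LIN28B window was sparse. There were 4 H3K27ac peaks in all, and apart from the strong pair they had signal values of 2.02 and 2.60. The 7 H3K4me1 peaks had signal values from 1.79 to 4.85, and together covered 5.24 kb. Of the windows centred on H3K4me3 summits across the genome, 83.7% had at least that much H3K4me1, and LIN28B had the least of the 6 genes.

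IGF2BP1, on the plus strand of chromosome 17 with its start at 47074774, had the strongest acetylation of the 6 genes and strong sites on both sides. At the start, H3K4me3 ran from 47072054 to 47080175 with a signal value of 56.7 (top 8.44%). It continued after a short gap in a peak of 1783 bp (15.8). H3K27ac ran from 47071915 to 47085547, 13633 bp, with a signal value of 41.4 (top 2.49%). By p-value these were the top 3.31% and top 1.71% of their lists, so here both orders put the start high. Peaks of chromosome 17 with like signal values also had high −log10 p-values. For H3K4me3 their median was 5706 over 169 peaks, against 4789 over 2305 in the whole list and 6662 at the start. For H3K27ac it was 3104 over 79 peaks, against 2411 over 1148 in the whole list and 3104 at the start. What raises them there was not tested.

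Downstream of the IGF2BP1 start lay a row of wide blocks that bore H3K27ac and H3K4me1 together. The block with its H3K27ac summit 16141 bp downstream was 8325 bp wide (signal value 29.4), H3K4me1 covered 96.3% of it, and a weak H3K4me3 peak (4.12) lay inside. A further block, with its summit 24953 bp downstream, was 3671 bp wide (13.1) and did not overlap H3K4me3. It lay wholly inside the strongest H3K4me1 peak of any of the 6 windows, which had a signal value of 10.4. Upstream, an H3K27ac peak from 47047254 to 47051483 had its summit 25285 bp before the start and a signal value of 34.6 (top 4.33%). It overlapped 3 weak H3K4me3 peaks (2.21 to 3.97) and an H3K4me1 peak of 7.72. The gene before IGF2BP1 in RefSeq order is GIP, which encodes an incretin hormone of the gut, and whether these upstream peaks lie in it was not analysed here.

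IGF2BP3, on the minus strand of chromosome 7 with its start at 23510086, resembled its paralog at the start but not around it. H3K4me3 ran from 23506281 to 23516630, 10350 bp, the 15th widest of the list, with a signal value of 60.5 (top 5.58%). H3K27ac ran from 23504473 to 23516870, 12398 bp, with 29.7 (top 6.28%). Both extended further upstream than downstream, H3K4me3 by 6544 against 3805 bp. A second site with H3K4me3 (29.6) and H3K27ac (22.3) had its summits 20328 and 20338 bp upstream. The other 9 H3K27ac peaks all lay downstream and had signal values from 1.78 to 2.89, all below the list's median of 3.15. At IGF2BP1, by contrast, 3 peaks apart from that over the start exceeded 13. IGF2BP3 was the only other member with a promoter in the same table. It is shown with the same motifs in capitals, as chr7:23470492-23470741, GRCh38.p14, minus strand.
IGF2BP3: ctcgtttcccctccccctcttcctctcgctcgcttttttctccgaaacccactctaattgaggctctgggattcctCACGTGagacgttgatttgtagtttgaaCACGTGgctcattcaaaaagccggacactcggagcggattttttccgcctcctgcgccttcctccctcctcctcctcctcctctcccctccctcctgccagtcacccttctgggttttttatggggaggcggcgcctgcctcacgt

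This promoter has 15 CG and 56.8% G and C. It holds 2 matches to CACGTG and none to CCAAT or its reverse complement. It also lacks the GC box letters searched above, and TATAAA, the TATA box letters found in 10.7% of promoters, on either strand. RefSeq promoters were matched for 2 of the 6 genes, LIN28B and IGF2BP3.

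SALL4, on the minus strand of chromosome 20 with its start at 50419000, stood apart at its start. Its H3K4me3 peak ran from 50416938 to 50418465, beginning 535 bp downstream, with a signal value of 5.51 (top 64.3%), the lowest of the 6 start peaks. An H3K4me1 peak from 50416605 to 50418594, with a signal value of 6.33 (top 9.84%), covered 100% of it. No H3K27ac peak overlapped either, and the nearest H3K27ac peak began 20484 bp from the start. H3K4me3 with H3K4me1 and without H3K27ac is the combination of 18.7% of all H3K4me3 peaks, and of 38.0% (95% Wilson interval 35.0 to 41.1) of the 972 with a signal value within 10% of this one.

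Upstream of SALL4 no H3K27ac and no H3K4me3 peak lay within 50 kb. H3K4me1 peaks there numbered 6, the strongest with a signal value of 4.81 and its summit 8534 bp upstream. Downstream were 7 H3K27ac peaks, with signal values from 1.63 to 8.70. The strongest H3K4me3 peak of the window was not at the SALL4 start but had its summit 34477 bp downstream, from 50383209 to 50385086, with 29.4 (top 37.5%), and bore H3K27ac of 6.08. The neighbouring gene on that side in RefSeq is ATP9A, a lipid flippase. Which gene the peak belongs to was not analysed here. Only at SALL4 and LIN28B was the strongest H3K4me3 peak of the window not the peak at the given start.

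HMGA2, on the plus strand of chromosome 12 with its start at 66218240, had most of its H3K27ac at and after the start. Its only H3K4me3 peak ran from 66216137 to 66222831, 6695 bp, with a signal value of 44.1 (top 22.4%). H3K27ac ran from 66216143 to 66222337 with 16.5 (top 15.0%), the lowest of the 5 acetylated starts, and H3K4me3 covered 100% of it. Beyond this block, 14 H3K27ac peaks lay downstream and 0 upstream. They were weak, from 1.79 to 4.16, and the strongest had its summit 14584 bp downstream. H3K4me1 had 17 of its 23 peaks downstream, with a highest signal value of 4.92. By length, 86.8% of H3K27ac lay downstream of the HMGA2 start. That share was 100% at SALL4, 73.4% at IGF2BP1, 51.0% at IGF2BP3, 42.5% at GPC3 and 39.8% at LIN28B.

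**Figure D2:**
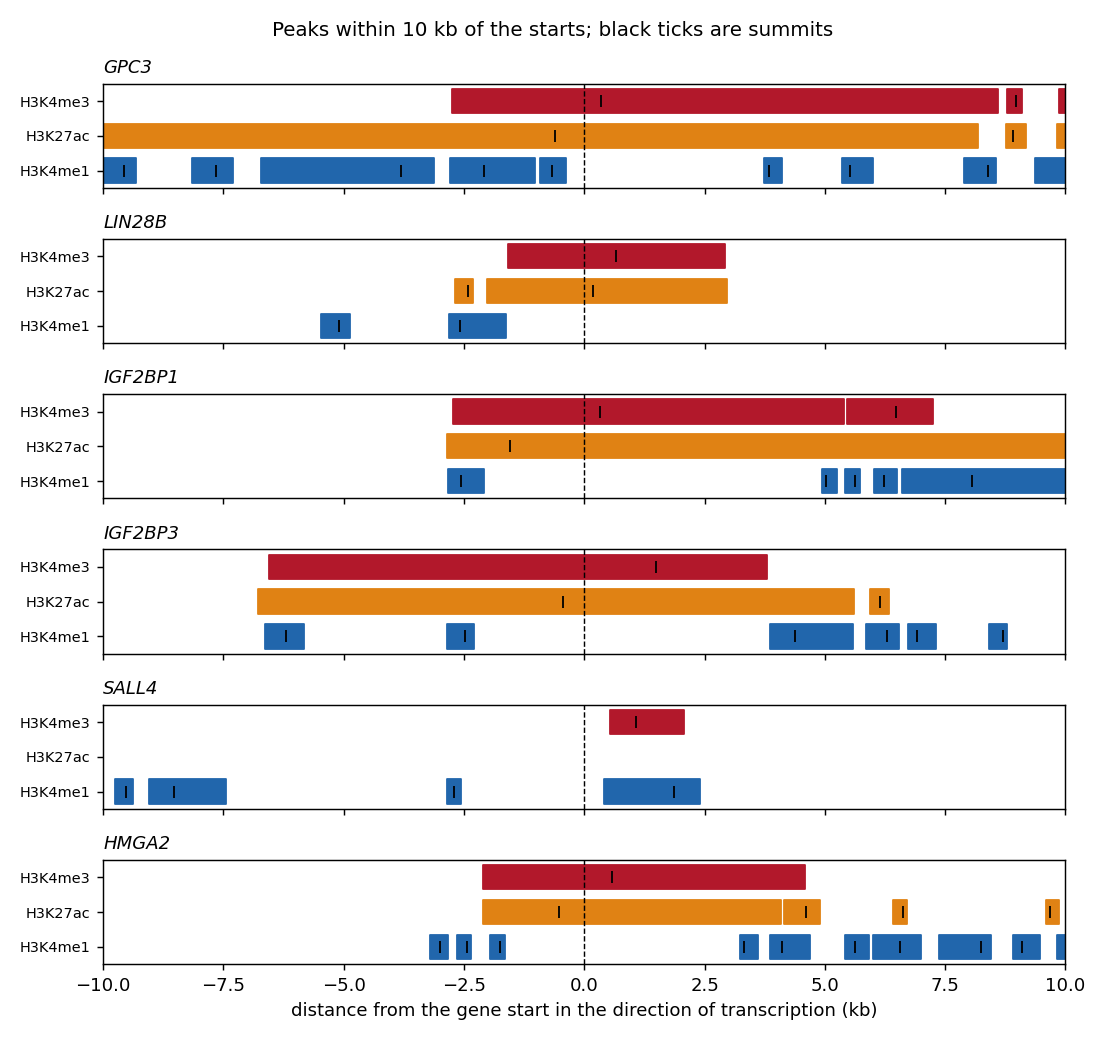
Peaks of the 3 marks within 10 kb of each start, drawn to scale by distance from the start in the direction of transcription (kb), with black ticks at the summits. H3K4me3 and H3K27ac bars cross the dashed start line in 5 panels, H3K4me1 bars stop short of it in all 6, and in the SALL4 panel the H3K4me3 bar lies inside an H3K4me1 bar.

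The peaks at most of the starts were wide for their signal values. Among H3K4me3 peaks with a signal value within 10% of the member's, 0.163% were at least as wide as that of GPC3, 0.270% for IGF2BP3, 0.817% for HMGA2, 0.954% for IGF2BP1 and 1.63% for LIN28B. These shares include the member's own peak. SALL4 was nearer the middle, with 11.2%. The H3K4me3 peak upstream of LIN28B was in the top 20.9% of the whole list by width, a rank that does not take signal value into account. By that rank the SALL4 start peak was in the top 50.2%. For H3K27ac the corresponding shares were 0.149% at GPC3, 1.40% at IGF2BP3, 1.48% at IGF2BP1, 4.86% at HMGA2 and 17.4% at LIN28B. GPC3 thus had the lowest share for both marks. The width of a called peak depends on how the caller joins neighbouring enrichment, and its settings are not given in the sources used here.

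**Figure D3:**
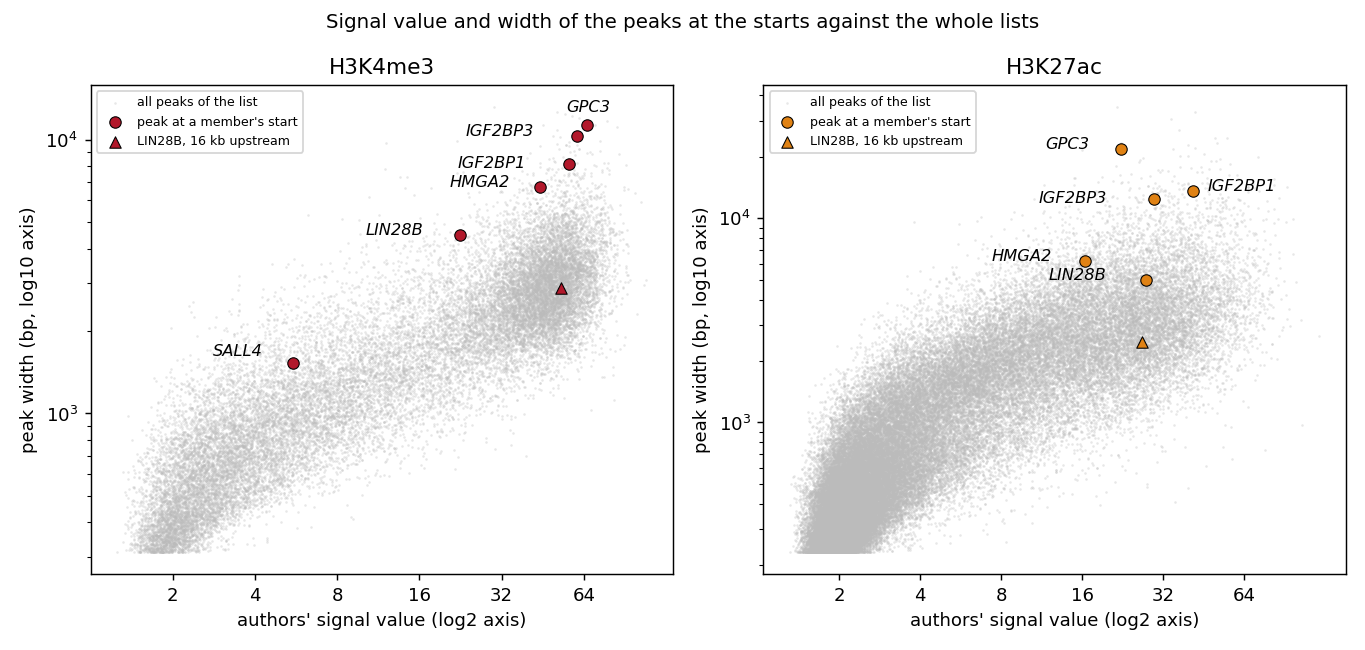
Width (bp, log10 axis) against the authors' signal value (log2 axis) for all peaks of the H3K4me3 list (left) and the H3K27ac list (right) on chromosomes 1 to 22 and X in grey, with the peaks at the starts as circles and the strong LIN28B peak some 16 kb upstream as a triangle. The circles of GPC3, IGF2BP3, IGF2BP1, HMGA2 and LIN28B lie at the upper edge of the H3K4me3 cloud, the SALL4 circle less so, and the LIN28B triangle lies within it.

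The nearest H3K4me1 peaks on both sides of the start stood 2962 bp apart at SALL4, 4119 bp at GPC3, 4877 bp at HMGA2, 6162 bp at IGF2BP3, 7028 bp at IGF2BP1 and 13521 bp at LIN28B. Around the 14506 H3K4me3 summits that lay outside H3K4me1 peaks, with a peak on either side, the gap had a median of 1908 bp and a middle 50% from 1125 to 4102 bp. That gap was taken around summits and not around gene starts. It was not matched for the signal value or width of the H3K4me3 peak, and most of the start peaks were wide. The H3K4me3 summit at SALL4 lay inside an H3K4me1 peak, so the SALL4 distance has no like background here. At GPC3 the upstream edge of the gap was only 387 bp from the start and the downstream edge 3733 bp away. The gap lay mostly after the start at the other 4 genes with acetylated starts as well. At SALL4 it lay mostly before the start, where the downstream H3K4me1 peak began at 406 bp. Of the H3K4me3 peak at the start, H3K4me1 covered 34.8% at GPC3, 21.4% at HMGA2, 12.4% at IGF2BP3, 11.7% at IGF2BP1 and 0% at LIN28B, against 100% at SALL4.

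H3K27ac covered 61.0 kb of the GPC3 window, 39.8 kb at IGF2BP1, 17.5 kb at IGF2BP3, 15.9 kb at HMGA2, 8.13 kb at LIN28B and 6.53 kb at SALL4. For windows of the same length centred on each of the 24446 H3K4me3 summits, the median was 8.20 kb (middle 50% from 3.33 to 16.3 kb). Of these, 0.119% had at least as much as GPC3 and 1.91% as much as IGF2BP1, whereas LIN28B and SALL4, with 50.3% and 57.6%, were ordinary. Windows around neighbouring summits overlap, so they are not independent.

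H3K4me1 was longest at the same 2 genes, with 57.8 kb at GPC3, 35.8 kb at IGF2BP1, 17.4 kb at HMGA2, 15.4 kb at SALL4, 9.39 kb at IGF2BP3 and 5.24 kb at LIN28B. The median around H3K4me3 summits was 18.2 kb, so GPC3 and IGF2BP1 were above it and the other 4 genes below. H3K4me3 covered 15.3 kb at IGF2BP1, 13.7 kb at GPC3, 12.2 kb at IGF2BP3, 7.36 kb at LIN28B, 6.70 kb at HMGA2 and 3.84 kb at SALL4, beside a median of 5.17 kb. The paralogs IGF2BP1 and IGF2BP3 thus had like lengths of H3K4me3 but differed in H3K27ac and H3K4me1. No spread between cultures is known for these lengths.

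**Figure D4:**
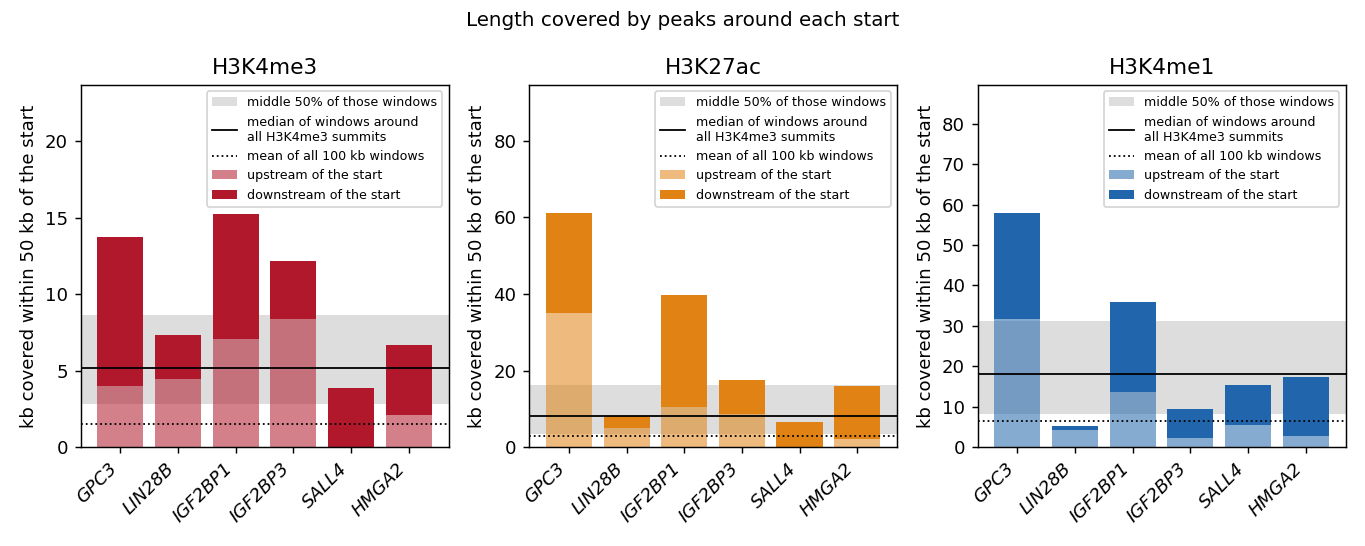
Bars give the length (kb) covered by peaks of each mark within 50 kb of the start, with the part upstream of the start in the pale shade and the part downstream in the full shade. The solid line and grey band give the median and middle 50% of windows centred on all H3K4me3 summits, and the dotted line the mean of all 100 kb windows. GPC3 and IGF2BP1 rise above the band for each mark, IGF2BP3 does so for H3K4me3 and H3K27ac, and LIN28B lies below the band for H3K4me1.

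Most H3K27ac peaks near the 6 genes were away from H3K4me3 and weak. Of the 81, 48 (59.3%) overlapped H3K4me1 without H3K4me3, beside 59.8% in the whole list, so this count is near the background. Their signal values ran from 1.63 to 17.7 with a median of 2.34. Those that overlapped H3K4me3 numbered 16 (19.8%), beside 31.7% in the list, with a median of 19.4 and a median width of 4606 bp. The remaining 17 (21.0%) overlapped neither methylation, beside 8.52% in the list, and had signal values from 1.78 to 2.64, all below the list's median of 3.15. The 8.52% is over peaks of all signal values, and the share among peaks as weak as the 17 was not computed. Those 17 came from GPC3 (3 peaks), LIN28B (1), IGF2BP1 (6), IGF2BP3 (4) and HMGA2 (3), with 0 at SALL4. Of the 128 H3K4me1 peaks, 77 (60.2%) overlapped H3K27ac, beside 33.4% in the list. GPC3 supplied 37 of those 77. The share was 75.5% at GPC3, 62.5% at IGF2BP1, 52.2% at HMGA2 and 38.5% at SALL4, with 6 of 12 peaks at IGF2BP3. At LIN28B it was 28.6% of only 7 peaks, below the list's share. H3K4me1 peaks that overlapped neither other mark numbered 47 (36.7%), beside 61.6% in the list. By gene this last share ran from 24.5% at GPC3 to 57.1% at LIN28B. The list's shares for H3K4me1 peaks are over stretches of any H3K27ac coverage, and shares at like coverage were not computed.

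Weak peaks made up much of the H3K27ac count. Signal values were below the median of the whole list for 12 of 21 H3K4me3 peaks, 57 of 81 H3K27ac peaks and 69 of 128 H3K4me1 peaks near the genes. By definition about 50% of a list lies below its median. The H3K4me3 and H3K4me1 counts were near that share, and only the H3K27ac count was well above it. At the rule's border, the farthest peak inside was an H3K27ac peak of IGF2BP3 whose edge was 49873 bp from the start (signal value 1.92). The nearest outside was an H3K4me1 peak 50826 bp from the start of SALL4 (6.71).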

How the data were processed

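Chromatin immunoprecipitation and sequencing of 3 histone marks and a control gave 12 libraries in 4 groups of 3, per the labels. The authors deposited 1 peak list per mark, pooled going by its name. The tool MACS2 and the build hg19 are named in the submitters' processing notes, while the version, threshold and use of the control are not given in the sources used here. For each peak the deposited columns were a signal value, −log10 values of a p-value and a q-value, and a score that was not used. Peaks of a list did not overlap one another. Peaks on chromosome Y were left out.

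Gene starts on GRCh37 were given, and a GRCh37 annotation was not used here, so paralogs, cell type markers and the exons or introns under peaks were not analysed. A mark was counted at a start when a peak overlapped 1000 bp to either side. Marks were shared where peaks had at least 1 bp in common. No significance test was possible with 1 pooled list per mark. Named peaks were those at or nearest to each start, the strongest and the widest of each mark in a window. Others named at LIN28B, GPC3, IGF2BP1, IGF2BP3 and SALL4 were chosen after their values were seen. The members and lists were chosen with earlier results of these data known. Promoters came from RefSeq by symbol, and CG, G and C and motifs were counted in the 250 bases before the start on both strands. Alternatives were a q-value limit (−log10 of 5 or more), the upper 50% of each list by signal value, peaks joined within 1000 bp, windows of 20 and 100 kb, placement by summit, start windows of 200 and 2000 bp, and 50% of a peak covered. Python 3.11.15, numpy 2.4.6, pandas 2.3.3, scipy 1.17.1 and matplotlib 3.10.9 were used, and the interval counts were tested on simulated data.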

Additional observations from a re-analysis of the deposited data

How the results depend on the processing

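Over 12 results, 60 alternative values were computed, of which 34 stayed within 1.5 times the main count and 26 did not. No paired analysis was possible because the lists pool the replicates. H3K27ac was at 5 starts under each alternative run, and H3K4me3 at 5 or 6. H3K4me1 was at 0 starts within 200 bp and at 4 within 2000 bp, and at 1 start under the q-value limit (−log10 of 5 or more) and 1 in the upper 50% of each list. The q-value limit left 50 H3K27ac and 82 H3K4me1 peaks, with 25 H3K27ac peaks overlapping H3K4me1 without H3K4me3 and 10 overlapping neither. The upper 50% left 9 H3K4me3, 24 H3K27ac and 59 H3K4me1 peaks, with 8, 15 and 1 H3K27ac peaks in the classes with H3K4me3, with H3K4me1 alone and with neither. Joining peaks within 1000 bp gave 38 H3K27ac and 50 H3K4me1 peaks, with 19 and 7 in the latter 2 classes. Within 20 kb there were 13 H3K4me3, 27 H3K27ac and 60 H3K4me1 peaks, covering 91254 bp of H3K27ac and 66388 bp of H3K4me1. Within 100 kb there were 139 H3K27ac and 228 H3K4me1 peaks, with 232619 bp of H3K4me1. Fewer, joined or more peaks follow from how these alternatives are built. Depth is unknown, so a missing peak, as of H3K27ac at SALL4, was not detectable in these lists and is not shown to be absent.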

Other observations

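Between 50 and 250 kb from the starts, outside the windows described above, the genes differed in what surrounded them. HMGA2, whose own window held only weak acetylation beyond the start, had an H3K27ac peak of 11411 bp with its summit 72.1 kb downstream, on chromosome 12 from 66282323 to 66293733, with a signal value of 33.7 (top 4.60%), above the 16.5 at its start. It overlapped H3K4me3 and H3K4me1. IGF2BP3 had an H3K27ac peak of 45.6 (top 1.78%) 61.4 kb upstream, on the side of its neighbour TRA2A, with H3K4me3 of 51.9. GPC3, which had the longest acetylation within 50 kb, had none above 5.23 in the outer stretch, where its 25 H3K27ac peaks all lacked H3K4me3. SALL4 had 13 outer H3K27ac peaks, the strongest of 8.74 with its summit 51.8 kb downstream, so that no H3K27ac peak within 250 kb of its start exceeded that value. LIN28B had 6, the strongest of 7.88 with its summit 97.3 kb upstream. IGF2BP1 had 27 outer H3K27ac peaks, the strongest of 30.4 (top 5.94%) with its summit 71.4 kb downstream. It also had 11 outer H3K4me3 peaks, the strongest of 57.3 with its summit 166 kb upstream. The outer distance was chosen after the data had been seen, and which genes these peaks serve was not analysed here.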
